A study of Mus musculus with 6 samples.

Results

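The genes described here handle proteins in the endoplasmic reticulum (ER) on the way from import to export or disposal, leaving aside the chaperones themselves. They were chosen by pathway annotation and symbol. From the 161 genes that the deposited table assigns to the KEGG pathway of protein processing in the ER, 49 were set aside, namely the Hsp, Dnaj, Pdia, Eif and Derl genes and a list of named chaperones, stress sensors, transcription factors and degradation genes. The other 112, of 16375 genes in the table, are the members. The set was put together when the difference between the groups was already known for these libraries, and the genes set aside held the larger differences. All values of that difference are therefore given as description. RNA of 6 mouse liver samples was sequenced in bulk, 3 from control mice (control 1 to 3) and 3 from mice that had received inosine, a purine nucleoside, by intraperitoneal injection (inosine 1 to 3). The title of the series places the work in the study of A-to-I RNA editing in the liver and of cachexia, the wasting that accompanies cancer. The sources used here do not give what the control mice received, nor strain, sex, age, dose or time of collection. They do not state that each library came from an animal of its own, so the p-values below rest on the scatter among libraries, which may be technical.

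Secreted and membrane proteins enter the ER through a channel, the Sec61 translocon. Inside, an oligosaccharyltransferase attaches a branched sugar to them, glucosidases and mannosidases trim that sugar, and the lectins calnexin and calreticulin read it and hold the protein until it is folded. Folded cargo leaves in vesicles with a COPII coat. Misfolded cargo is ubiquitinated at the ER membrane, drawn into the cytosol by the ATPase Vcp (also called p97) and degraded. Hepatocytes, which secrete most plasma proteins, depend heavily on this route, and when it is overloaded the unfolded protein response raises many of its genes and can in the end engage kinases and proteins of cell death.

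Of the 112 members, 108 had enough reads for a test. Their messages lay above the middle of the liver transcriptome, with a median of 24.0 TPM (an abundance scale that allows for transcript length) in control liver, where the median over all genes tested was 7.59 TPM. The others were the F-box gene Fbxo2, the lectin gene Lman1l, the calreticulin relative Calr4 and Ube2d2b, a near-identical copy of Ube2d2a. None of these 4 exceeded 0.122 CPM (counts scaled to a common library total) in any library, and a count of 0 allows up to 0.171 to 0.183 CPM, so nothing can be said of them at this depth.

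The members differed little between the groups. Inosine over control, their median log2 fold change was 0.08, with quartiles of -0.01 and 0.19 and a range from -0.52 to 0.66, beside a median of -0.01 over all genes tested. In 79 of the 108 (73.1%) the fold change was positive and in 29 negative, where 48.2% of all genes tested were positive. By the quasi-likelihood test of edgeR, with p-values adjusted over all 12326 genes tested, 0 members passed at 0.05, and their adjusted p ran from 0.083 to 0.997. One gene passed in the whole table, 0.00811% of those tested. At an unadjusted p under 0.05 there were 22 members higher (20.4%) and 2 lower (1.85%), where the shares over all genes were 7.21% higher and 7.26% lower. DESeq2 called 2 members higher, Ubqln4 and Selenos, and 0 lower, of the 106 to which it gave an adjusted p. It called 0.967% of all its genes higher. In the authors' deposited table, whose q-values also come from DESeq2, the same 2 members had a q-value under 0.05. Over all 12326 genes tested, 94 were higher at that q-value.

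All 3 inosine libraries lay above all 3 controls for 29 members, or 26.9%, and below them for 5, or 4.63%. Over all genes tested these shares were 11.1% and 9.8%. The counts move with single libraries. Without control 1 there were 47 members higher and 8 lower, where the shares over all genes were 20.4% and 19.6% with 1 library fewer. There were 8 lower without inosine 2 and 10 without inosine 3, where the shares lower over all genes were 15.7% and 14.4%. Those shares also exceeded the 9.8% found with all libraries. Counts of separate groups below, by role or for the genes set aside, stand beside the all-gene shares of 11.1% higher and 9.8% lower.

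**Figure D1:**
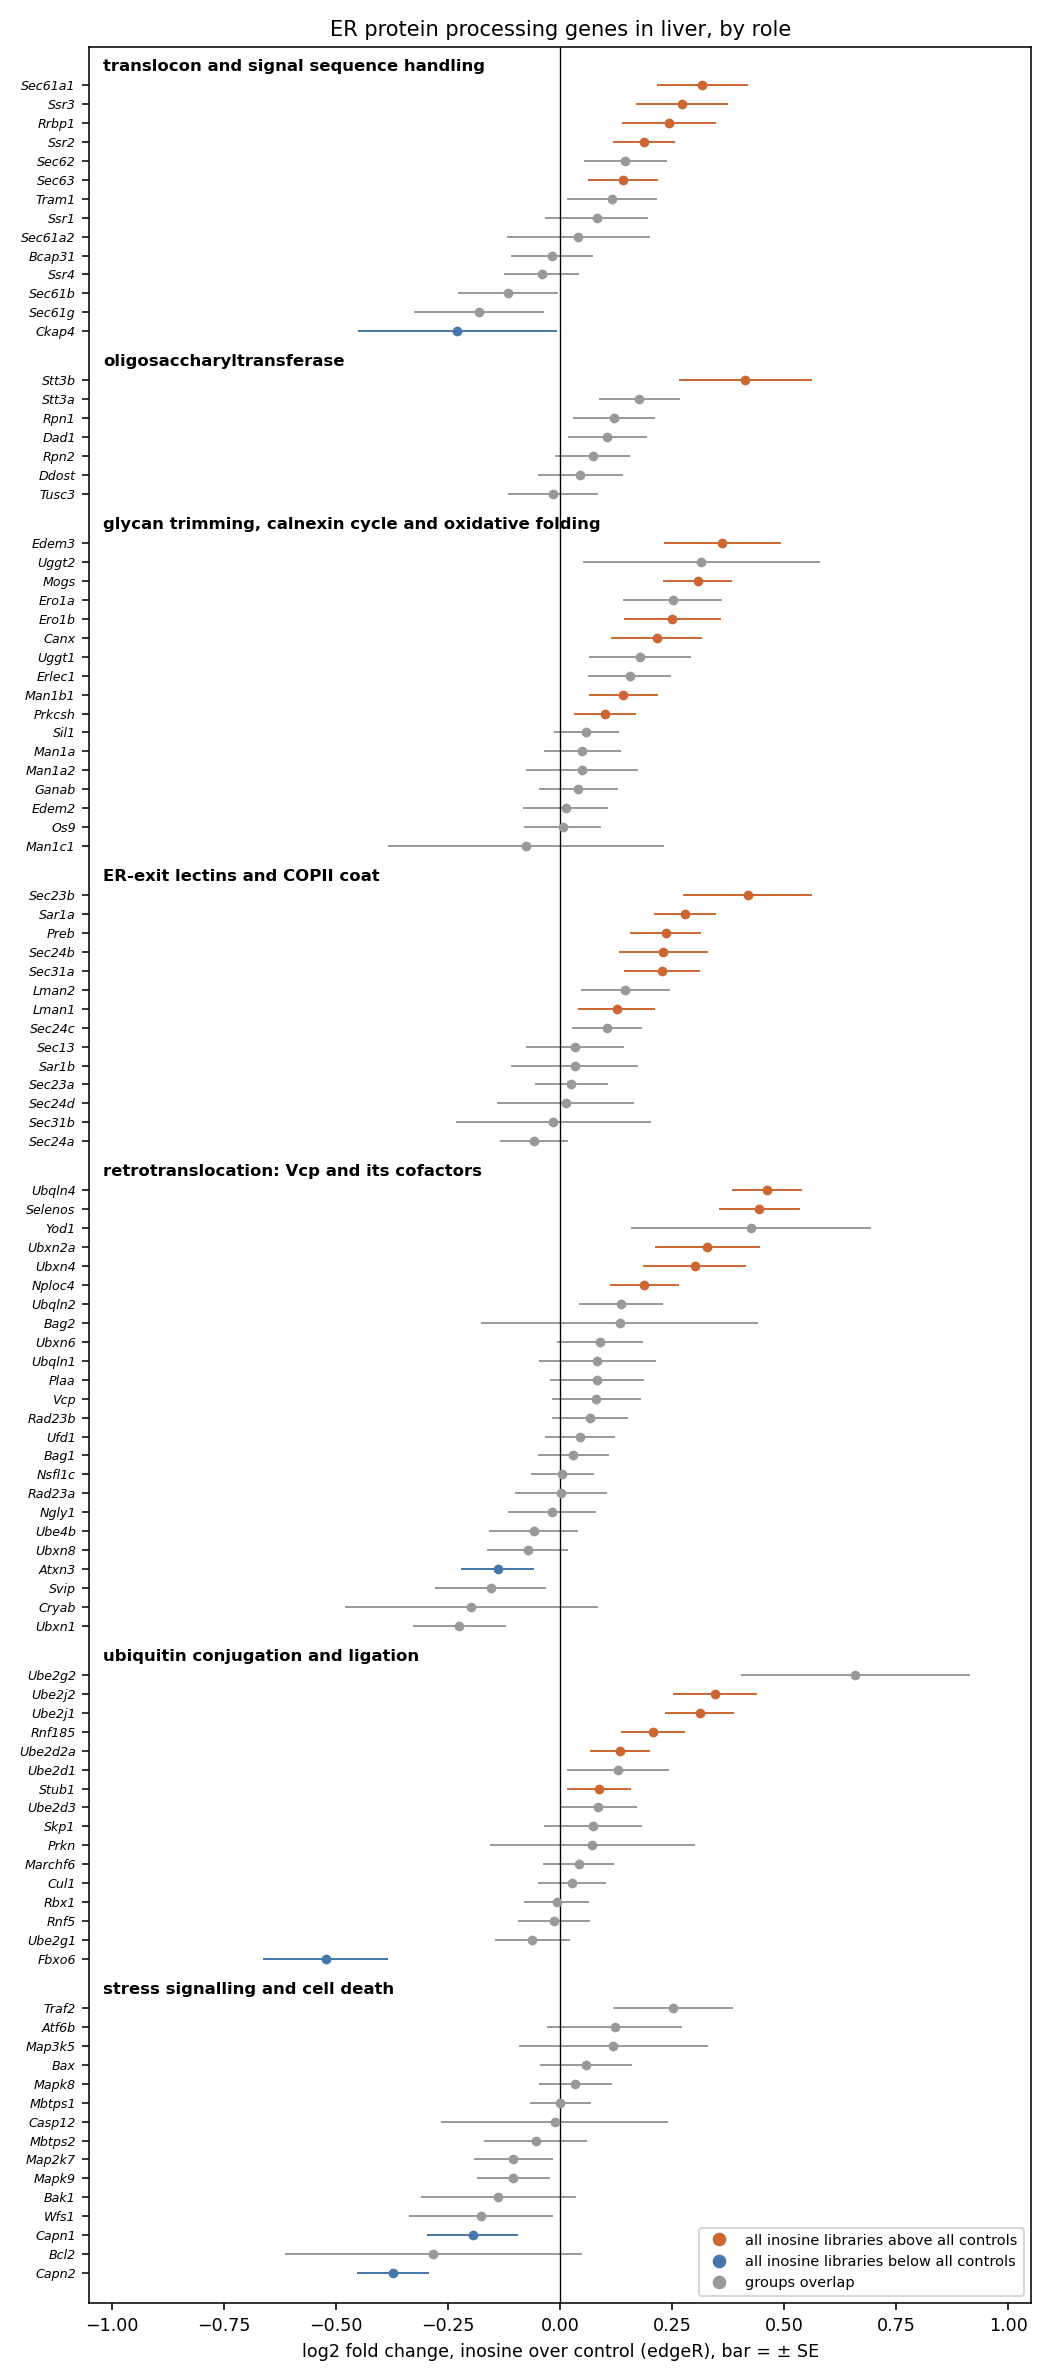
Inosine over control, as log2 fold change, for the tested members that are reported, grouped by role, with bars of 1 standard error (SE). Orange and blue points mark members whose 3 inosine libraries all lay above or all below the 3 controls, and grey points members whose groups overlapped. Most points of the import, glycan, export and ubiquitin groups lie to the right of 0, and those of stress signalling and cell death lie on both sides.

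Channel and signal-sequence genes, 14 in number, had a median log2 fold change of 0.10, with 5 members entirely higher in the inosine libraries and 1 entirely lower. Without inosine 1 the median was 0.17. Sec61a1, which encodes the pore of the translocon, measured 131, 131 and 126 CPM in the controls, in order of replicate number, and 142, 160.3 and 180.5 CPM in the inosine libraries (CPM here and below are scaled by TMM, the library scaling of edgeR). The groups did not overlap, inosine 3 was the highest library and inosine 1 stood nearest to the controls. The log2 fold change was 0.32 (SE 0.10), a ratio of 1.25, with an edgeR adjusted p of 0.24. Its position is chromosome 6, 88480587 to 88495782 (GRCm39, gene ID 53421).

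Ssr3, a subunit of the translocon-associated protein complex, gave 243, 233 and 222 CPM in control and 252, 277 and 313 CPM in inosine. Its groups were separate by a narrow margin, between control 1 and inosine 1. Between groups the log2 fold change was 0.27 (adjusted p = 0.30 in edgeR, SE 0.10). A second subunit, Ssr2, stood at 0.19 (SE 0.07) and Rrbp1, a ribosome-binding protein of the rough ER, at 0.24 (SE 0.10), both without overlap. Sec63, which works with the channel on import after translation, was chosen after its values were seen and measured 0.14 (SE 0.08), also without overlap. The small channel subunits did not share this direction. Sec61b was the most abundant member of the group at 197 ± 15.9 TPM in control (SD, n = 3) and measured -0.12 (SE 0.11), with 34.6, 43.2 and 34.4 CPM in control and 32.5, 33.4 and 37.7 CPM in inosine. Those libraries overlapped, and the sign of Sec61b rested on control 2, without which it was 0.00. Sec61g, the third subunit, was at -0.18 (SE 0.14), and Ckap4, a shaping protein of ER sheets, was the 1 member entirely lower, at no more than 2.40 CPM in any library. Both were picked with their values in view.

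The 7 oligosaccharyltransferase genes had a median of 0.11, which was 0.04 without inosine 3 and 0.16 without inosine 1. Both catalytic subunits are members and were about equally abundant in control liver, Stt3a at 20.4 ± 1.13 TPM and Stt3b at 20.6 ± 1.48 TPM (SD, n = 3). The Stt3a complex sits at the channel and glycosylates proteins as they enter, while the Stt3b complex can act on sites that were skipped. Stt3b measured 70.9, 68.3 and 63.2 CPM in control and 77.6, 113 and 78.8 CPM in inosine. Every inosine library was above every control, but inosine 2 stood far above the other inosine libraries, so that the log2 fold change of 0.41 (adjusted p = 0.28 in edgeR, SE 0.15) became 0.22 without it. Stt3a gave 88.8, 87.2 and 94.5 CPM against 91.8, 104 and 109.9 CPM, with inosine 1 inside the control range (log2 fold change 0.18, SE 0.09). The structural subunits were closer to 0. Rpn1 was at 0.12 and Dad1, the most abundant at 162 ± 12.3 TPM in control (SD, n = 3), at 0.11, each with an SE of 0.09 and overlapping groups. Without inosine 3 Dad1 was at 0.02, and without inosine 1 it was at 0.16 and Rpn1 at 0.19.

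Glycan trimming, the calnexin cycle and oxidative folding were covered by 18 members, of which 17 were tested. In 16 of the 17 (94.1%) the fold change was positive, against 48.2% of all genes tested. The median was 0.14, and 6 were entirely higher and 0 entirely lower in inosine. Mogs, glucosidase I, which removes the outermost glucose of the new glycan, measured 41.6, 42.6 and 47.5 CPM in control and 55.3, 53.8 and 53.8 CPM in inosine. The inosine libraries were close to each other and all above control 3, the highest control. It stood at a log2 fold change of 0.31 (adjusted p = 0.17 in edgeR, SE 0.08). Glucosidase II, which acts next, was less displaced, with its catalytic subunit Ganab at 0.04 (SE 0.09) and its regulatory subunit Prkcsh at 0.10 (SE 0.07). Canx, calnexin, gave 333, 324 and 343 CPM in control and 349.7, 379.8 and 432 CPM in inosine. The groups met closely between control 3 and inosine 1, and the log2 fold change was 0.22 (adjusted p = 0.38 in edgeR, SE 0.10). Without inosine 3 it was 0.13. The span that the deposited table gives for Canx, chromosome 11 from 50127837 to 50216500 of GRCm39, also covers Ltc4s and much of Maml1. That span may be longer than the gene, and how reads were divided there is not known.

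Edem3, a mannosidase that marks misfolded glycoproteins for disposal, stood at 0.36 (SE 0.13) with 42.0, 37.5 and 35.5 CPM in control and 46.3, 42.6 and 58.9 CPM in inosine. Control 1 and inosine 2 almost touched, and inosine 3 lay well above the rest, so that the value was 0.21 without it. The thiol oxidases Ero1a and Ero1b, which supply the disulfide isomerases with oxidising power, each measured 0.25 (SE 0.11), Ero1b without overlap and Ero1a with it. Ero1b was at 0.12 without inosine 3, and Ero1a at 0.15 without control 2. The lectins that carry trimmed glycoproteins to disposal were nearer to 0, Os9 at 0.01 (SE 0.09) and Erlec1 at 0.15 (SE 0.09). The glucosyltransferase Uggt1, which returns unfolded glycoproteins to calnexin, stood at 0.18 (SE 0.11) with overlapping groups. The choice of Ganab, Prkcsh, Os9, Erlec1 and Uggt1 was made with their values in view.

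Some genes of this pathway are known to be switched on through short promoter elements. The ER stress element ERSE is bound by Atf6 with NF-Y, a second form is called ERSE-II, and the unfolded protein response element UPRE is bound by Xbp1 and Atf6. RefSeq promoter windows of the build GRCm38.p6, from 250 bases before to 50 bases after the start of transcription, were matched by gene ID for 95 members with 115 windows. ERSE was searched as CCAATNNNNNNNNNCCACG, ERSE-II as ATTGG and CCACG with any 1 base between them, UPRE as TGACGTGG and the cAMP response element CRE as TGACGTCA, on both strands. CRE and UPRE share their first 6 letters but cannot be the same match, and 1 window in the whole table held both. ERSE was found in 3 member windows (2.61%), those of Canx, Ero1b and the untested Calr4, against 0.119% of all 32851 windows. Of the 50 windows of pathway genes set aside, 7 held it (14.0%). UPRE was found in 5 member windows (4.35%), those of Mapk8, Sec23a, Sec24d, Ube2j1 and Vcp, against 0.676% of all. CRE was found in 1 (0.870%), that of Skp1, against 1.79% of all, and ERSE-II in 0 of 115, against 0.0365% of all. Over the 12668 windows of genes tested the shares were 0.142% for ERSE, 0.781% for UPRE, 2.83% for CRE and 0.0710% for ERSE-II. The stress elements are known from genes of this pathway, so their shares in it are given as description only. A match is a run of letters and was not examined for binding.

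The 250 bases before the start are shown for the members whose window held an ERSE or UPRE and whose groups did not overlap, followed by shorter stretches around the element of Hspa5, the classical ERSE gene, and of 3 members whose groups overlapped. The UPRE of Sec23a lies after the start and is not shown. Capitals mark the element, each sequence reads in the direction of its gene, and in Ero1b and Ube2j1 the capitals are the reverse complement of the letters searched.
Canx, ERSE, chr11:50325674-50325923, minus strand: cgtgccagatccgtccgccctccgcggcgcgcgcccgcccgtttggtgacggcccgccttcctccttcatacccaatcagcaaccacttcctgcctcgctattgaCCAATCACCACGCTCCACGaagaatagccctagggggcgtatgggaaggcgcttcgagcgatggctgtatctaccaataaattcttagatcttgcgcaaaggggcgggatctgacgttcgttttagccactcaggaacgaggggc
Ero1b, ERSE, chr13:12565633-12565882, plus strand: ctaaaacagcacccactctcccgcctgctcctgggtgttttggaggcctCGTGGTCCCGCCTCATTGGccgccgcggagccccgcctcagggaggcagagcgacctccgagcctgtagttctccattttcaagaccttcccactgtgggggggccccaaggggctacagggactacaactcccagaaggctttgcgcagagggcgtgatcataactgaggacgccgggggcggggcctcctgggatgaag
Ube2j1, UPRE, chr4:33031130-33031379, plus strand: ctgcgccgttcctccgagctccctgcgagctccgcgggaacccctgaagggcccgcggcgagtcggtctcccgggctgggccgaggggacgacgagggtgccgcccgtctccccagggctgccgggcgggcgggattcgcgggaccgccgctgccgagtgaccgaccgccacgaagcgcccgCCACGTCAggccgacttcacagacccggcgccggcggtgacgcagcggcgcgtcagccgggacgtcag
Hspa5, ERSE, chr2:34772010-34772058, plus strand: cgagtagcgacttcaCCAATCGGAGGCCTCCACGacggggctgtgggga
Vcp, UPRE, chr4:43000599-43000636, minus strand: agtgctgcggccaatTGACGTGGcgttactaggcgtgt
Sec24d, UPRE, chr3:123267455-123267492, plus strand: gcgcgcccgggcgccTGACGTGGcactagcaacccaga
Mapk8, UPRE, chr14:33447172-33447209, minus strand: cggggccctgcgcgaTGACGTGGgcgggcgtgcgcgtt
Genes with the same element differed in their values. With an ERSE, Canx measured 0.22 and Ero1b 0.25, and Hspa5, which encodes the main lumenal chaperone and is not a member, 1.01 (SE 0.16). The other genes set aside that held an ERSE were Syvn1 at 0.97, Dnajc3 at 0.45, Hsp90b1 at 0.30, Pdia6 at 0.08, Calr at -0.01 and Derl3 at -0.04, the last 3 with overlapping groups. With a UPRE, Ube2j1 measured 0.31 (SE 0.08), while Vcp, Sec24d, Sec23a and Mapk8 lay between 0.01 and 0.08 with overlapping groups. Of the genes set aside, Txndc5 held a UPRE and measured 0.38 (SE 0.09) without overlap. Herpud1 at 0.91 and Dnajb11 at 0.39 held an ERSE-II, both without overlap, and Ppp1r15a at 0.34 held a CRE, with overlap.

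Export from the ER was represented by 15 members, 14 of them tested, with a median of 0.12, which was 0.07 without inosine 3 and 0.18 without control 1. Of these, 6 were entirely higher in inosine and 0 entirely lower. Sar1a, a GTPase that starts the assembly of the COPII coat, measured 88.6, 88.5 and 92.5 CPM in control and 108, 111 and 108 CPM in inosine. Both groups were tight and far apart for their spread. Its log2 fold change was 0.28 (adjusted p = 0.17 in edgeR, SE 0.07), and it lay between 0.27 and 0.30 whichever library was left out. Preb, the exchange factor that loads Sar1 with GTP, stood at 0.24 (SE 0.08) with 71.3, 79.7 and 79.2 CPM against 86.6, 92.3 and 92.0 CPM. Its inosine libraries were also all above the controls.

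The inner coat subunit Sec23b measured 35.0, 31.8 and 27.7 CPM in control and 40.6, 35.3 and 50.4 CPM in inosine. Inosine 2 was just above control 1, and the log2 fold change of 0.42 (adjusted p = 0.26 in edgeR, SE 0.14) was 0.27 without inosine 3. The outer coat subunit Sec31a stood at 0.23 (SE 0.08), and Sec24b, a cargo-binding subunit chosen after its values were seen, at 0.23 (SE 0.10), both without overlap. Lman1, a lectin whose cargo includes clotting factors, measured 0.13 (SE 0.09), also without overlap, and the related lectin Lman2 0.15 (SE 0.10) with overlap. The choice of both was made with their values in view. Sar1b was by far the most abundant export gene at 353 ± 66.2 TPM in control (SD, n = 3). It gave 314, 233 and 249.8 CPM in control and 301, 235 and 279 CPM in inosine, which overlapped throughout (log2 fold change 0.03, SE 0.14).

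**Figure D2:**
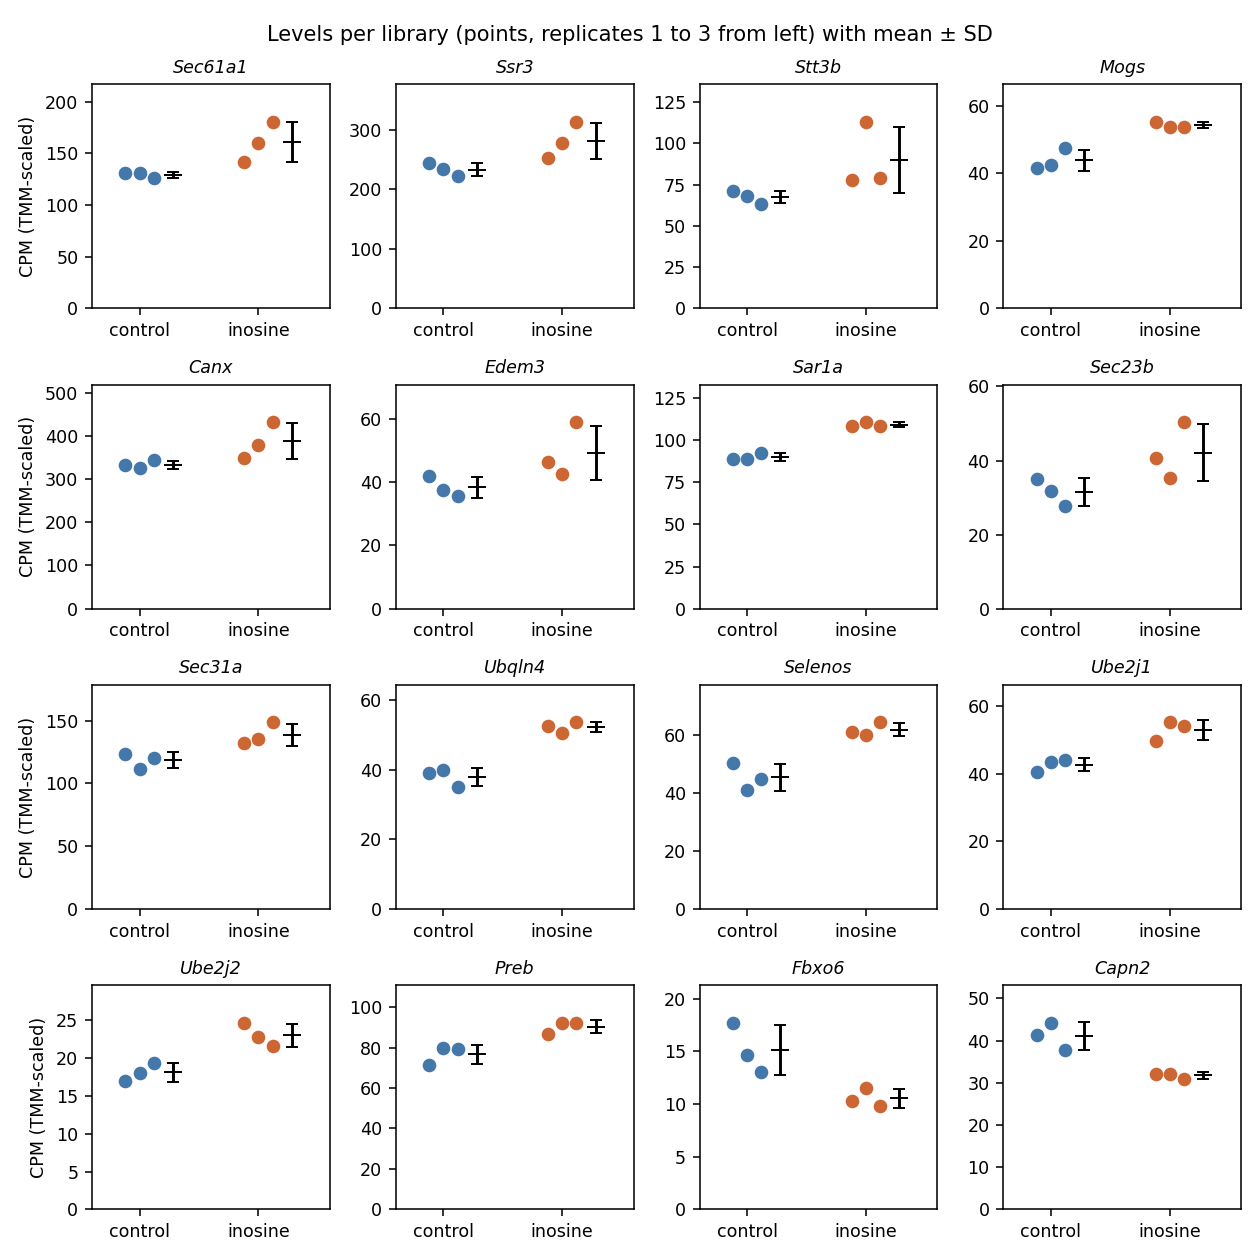
TMM-scaled CPM of members with separate groups in each library, 1 panel per gene, with axes that start at 0. Points are replicates 1 to 3 from left in control (blue) and inosine (orange), and bars beside them are the mean ± SD (n = 3). Ubqln4, Selenos, Sar1a and Mogs show all inosine points above all control points, Fbxo6 and Capn2 show inosine below control, and in Stt3b inosine 2 stands above the other inosine libraries.

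Retrotranslocation genes, Vcp and its cofactors, numbered 24, with a median of 0.07, 5 entirely higher and 1 entirely lower. The median was 0.03 without control 2, control 3 or inosine 3 and 0.12 without control 1. The smallest p of any member belonged to Ubqln4, a ubiquilin that shuttles ubiquitinated proteins to the proteasome. It measured 38.9, 39.9 and 35.1 CPM in control and 52.6, 50.6 and 53.6 CPM in inosine. The lowest inosine library was well clear of the highest control. The log2 fold change was 0.46 (SE 0.08), a ratio of 1.38, with an adjusted p of 0.083 by edgeR and 0.0075 by DESeq2. The q-value in the authors' deposited table, also from DESeq2, was 0.0112. The position of Ubqln4 is chromosome 3, 88460984 to 88477032 (GRCm39, gene ID 94232).

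Selenos, a selenoprotein of the ER membrane that recruits Vcp, gave 50.4, 41.1 and 45.0 CPM in control and 61.1, 60.1 and 64.4 CPM in inosine. Again the groups were well apart. The log2 fold change was 0.44 (SE 0.09), a ratio of 1.36, with an adjusted p of 0.12 by edgeR and 0.024 by DESeq2. The authors' deposited table, also from DESeq2, has a q-value of 0.0348. Selenos (ID 109815) lies on chromosome 7 from 65729397 to 65739153. With any 1 of the 6 libraries left out, the value of Ubqln4 stayed between 0.41 and 0.50 and that of Selenos between 0.38 and 0.53.

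Ubxn2a and Ubxn4, adaptors that bind Vcp through a UBX domain, stood at 0.33 (SE 0.12) and 0.30 (SE 0.11) without overlap, and Ubxn4 was at 0.18 without inosine 3. In Ubxn2a control 1, at 52.2 CPM, was close to the inosine libraries at 54.6, 54.0 and 56.4 CPM, while controls 2 and 3 were at 38.7 and 40.6 CPM. Nploc4, which with Ufd1 forms the adaptor for ubiquitinated ER proteins, measured 0.19 (SE 0.08) without overlap and Ufd1 itself 0.04 (SE 0.08) with it. Vcp was the most abundant at 156 ± 15.9 TPM in control (SD, n = 3), with 403, 348 and 379 CPM in control and 380.1, 384 and 431 CPM in inosine. Control 1 lay inside the inosine range, and the log2 fold change was 0.08 (adjusted p = 0.74 in edgeR, SE 0.10). Without control 1 it was 0.14, without control 2 it was 0.03 and without inosine 3 it was 0.02. The deubiquitinase Atxn3 was the 1 member entirely lower, at -0.14 (SE 0.08). Svip, an inhibitor of the Vcp step, was at -0.16 (SE 0.12) and the adaptor Ubxn1 at -0.22 (SE 0.10), both with overlap. Nploc4, Ufd1, Atxn3, Svip and Ubxn1 were chosen after their values were seen.

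Ubiquitin conjugation and ligation was covered by 19 members, 17 of them tested, with a median of 0.09, 6 entirely higher and 1 entirely lower. Ube2j1, an E2 enzyme anchored in the ER membrane, measured 40.5, 43.5 and 44.0 CPM in control and 49.7, 55.2 and 54.1 CPM in inosine. Its groups were separate, with a log2 fold change of 0.31 (adjusted p = 0.17 in edgeR, SE 0.08). The related E2 Ube2j2 gave 16.9, 18.1 and 19.4 CPM against 24.7, 22.8 and 21.6 CPM and also showed no overlap (log2 fold change 0.35, SE 0.09). Rnf185, a ubiquitin ligase of the ER membrane chosen after its values were seen, stood at 0.21 (SE 0.07) without overlap, and the ligase Marchf6, chosen in the same way, at 0.04 (SE 0.08).

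The lowest fold change of any member was that of Fbxo6, an F-box protein that recognises the sugars of misfolded glycoproteins for ubiquitination. It measured 17.7, 14.7 and 13.0 CPM in control and 10.3, 11.5 and 9.79 CPM in inosine. All inosine libraries were below all controls, which themselves spread widely. The log2 fold change was -0.52 (SE 0.14), a ratio of 0.70, with an edgeR adjusted p of 0.18. Fbxo6 (ID 50762) lies on chromosome 4 from 148230173 to 148236592. The core of the ligase into which it docks did not share this value. Skp1, the most abundant of the group at 227 ± 32.7 TPM in control (SD, n = 3), measured 0.07 (SE 0.11), and Cul1 and Rbx1, chosen after their values were seen, 0.03 (SE 0.08) and -0.01 (SE 0.07). The highest fold change of any member, 0.66 (adjusted p = 0.30 in edgeR, SE 0.25), was that of Ube2g2, an E2 enzyme of ER-associated degradation, named after its values were seen. It gave 39.0, 19.6 and 23.5 CPM in control and 34.2, 44.3 and 51.1 CPM in inosine. Control 1 was above inosine 1, so the groups overlapped, and the log2 fold change was 1.01 without control 1.

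Stress signalling and cell death genes, 15 in number, had a median of -0.05, with 0 entirely higher and 2 entirely lower. The share entirely lower was 13.3%, near the 9.8% over all genes tested. The sign of that median rested on inosine 1, and its size on single libraries, with 0.02 without inosine 1, -0.02 without control 2 and -0.14 without inosine 2. Both members entirely lower were calpains, the calcium-dependent proteases that can act in cell death. Capn2 measured 41.2, 44.2 and 37.8 CPM in control and 32.2, 32.2 and 30.8 CPM in inosine. The inosine libraries were close together and clear of the controls. Its log2 fold change was -0.37 (SE 0.08), a ratio of 0.77, with an adjusted p of 0.13 by edgeR and 0.098 by DESeq2. Capn2 (ID 12334) lies on chromosome 1 from 182294818 to 182345175. Capn1 stood at -0.20 (SE 0.10), with inosine 3 at 12.2 CPM just below control 3 at 12.5 CPM.

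The branch from the sensor Ern1 to the JNK kinases showed small values of both signs. The adaptor Traf2 was at 0.25 (SE 0.13), Mapk9 (JNK2) at -0.10 (SE 0.08), and, chosen after their values were seen, Map2k7 at -0.10 (SE 0.09), Mapk8 (JNK1) at 0.03 (SE 0.08) and Map3k5 at 0.12 (SE 0.21). All 5 had overlapping groups, and Mapk9 was at -0.04 without control 3. Map3k5, the kinase known as ASK1, had the loosest controls of these, at 49.9, 33.2 and 27.5 CPM. Bax, which permeabilises the outer mitochondrial membrane, was the most abundant of the group at 31.6 ± 2.64 TPM in control (SD, n = 3) and measured 0.06 (SE 0.10). The proteases Mbtps1 and Mbtps2, which release Atf6 from the membrane, measured 0.00 (SE 0.07) and -0.05 (SE 0.11), and the weakly expressed Casp12 and Bcl2 had SE of 0.25 and 0.33. The choice of these 4 was made with their values in view.

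**Figure D3:**
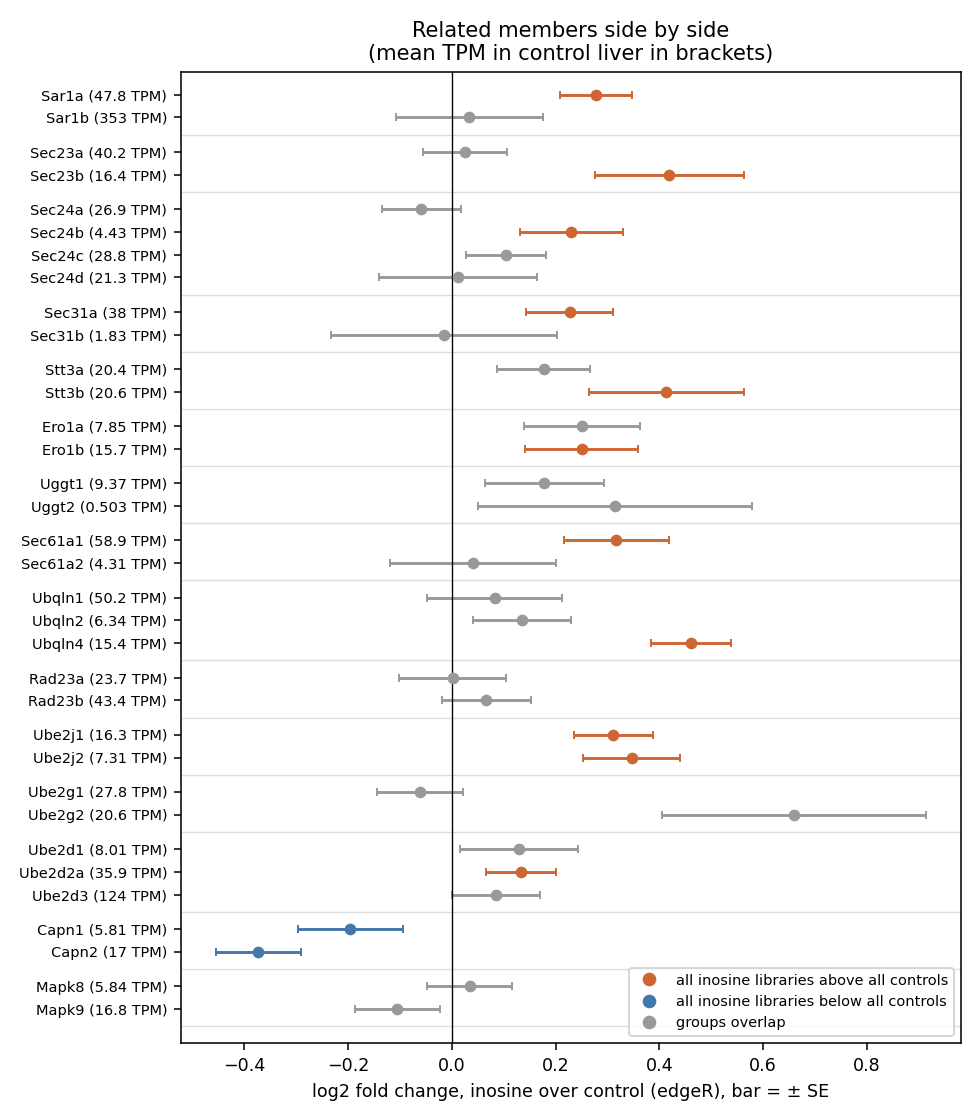
Inosine over control, as log2 fold change with bars of 1 SE, for members that belong to the same gene family, with the mean TPM in control liver in brackets. Sar1a lies to the right of Sar1b, Sec23b of Sec23a, Ubqln4 of Ubqln1 and Ubqln2, and both calpains lie to the left of 0.

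In the Sar1, Sec23, Sec24 and ubiquilin families the member with separate groups was not the most abundant one, and the same held for Ube2d2a beside Ube2d3. In the Sec61 alpha, Sec31 and Ero1 families it was the most abundant, and Stt3b was about as abundant as Stt3a. Sar1a at 47.8 ± 1.96 TPM in control was at 0.28, and Sar1b at 353 TPM was at 0.03. Sec23b at 16.4 ± 2.26 TPM was at 0.42, and Sec23a at 40.2 ± 3.58 TPM at 0.03 (SD, n = 3). Of the ubiquilins, Ubqln1 at 50.2 ± 8.71 TPM measured 0.08 (SE 0.13) and Ubqln4 at 15.4 ± 1.01 TPM measured 0.46. Ube2j1 and Ube2j2, the Ero1 pair and the calpains had fold changes of 1 sign within each pair. Ube2d2a, at 0.13 (SE 0.07), is nearly identical to the untested copy Ube2d2b, and its value is uncertain because reads could be divided between them. The families were chosen after the values were seen, and differences between relatives were not tested.

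The libraries did not contribute equally. Relative to the control mean, the median over the 108 members was 0.04, -0.03 and 0.00 on the log2 scale in the controls, in order, and 0.05, 0.07 and 0.12 in the inosine libraries. Over all genes tested each of these medians was 0.01 or less in size. Control 1 and inosine 1 therefore stood close to each other. For the retrotranslocation genes the median of control 1, at 0.10, exceeded those of the inosine libraries, at 0.02, 0.03 and 0.09. Inosine 3 was the highest library for 39 members, or 36.1%, against 18.0% of all genes. Control 2 was the lowest for 40 of the 108, and for 2482 of all 12326 genes tested. Control 1 also stood apart in the clock genes, whose summed level was 605 CPM there against 899 and 898 CPM in controls 2 and 3 and 672 to 764 CPM in inosine. That sum mixes shifts of both signs. In control 1 Dbp was lower, at 18.9 CPM against 160 and 142 CPM in controls 2 and 3, and so was Nr1d1. Arntl was higher there, at 10.7 CPM against 1.59 and 0.88 CPM, and so were Cry1 and Clock. The part of the clock in the values of the members was not tested.

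**Figure D4:**
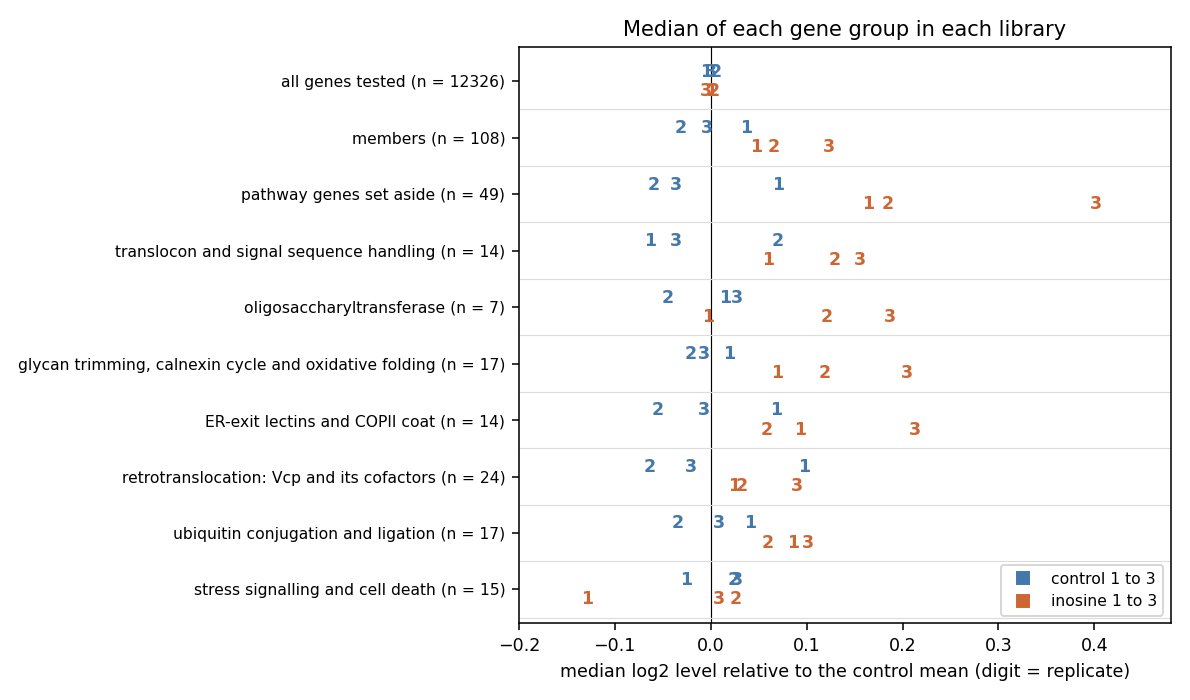
Median log2 level relative to the control mean in each library, for all genes tested, the members, the pathway genes set aside and each role group. Digits are replicate numbers, in blue for control and orange for inosine. The member medians run from -0.03 in control 2 to 0.12 in inosine 3, and those of the genes set aside from -0.06 to 0.40.

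Markers of liver cell types other than hepatocytes were mostly lower in value in inosine. All 12 hepatocyte markers were well expressed, with a summed level of 113594 to 150751 CPM over the 6 libraries and a median log2 fold change of 0.14. Of 12 markers each, 11 were lower in inosine for Kupffer cells (summed 344 to 506 CPM in control and 353 to 395 CPM in inosine), 11 for sinusoidal endothelium (286 to 338 and 204 to 307 CPM) and 11 for stellate cells (391 to 450.1 and 270.2 to 456 CPM). In each of these 3 lists the summed levels of the groups overlapped. All 5 tested erythroid genes were lower (651 to 866 and 291 to 514 CPM), without overlap of the sums. Medians over the tested markers were -0.14 for 6 cholangiocyte, -0.48 for 5 plasma and B cell and -0.42 for 3 neutrophil genes. The 1 tested T and NK cell marker was at -0.97, and the markers of the exocrine pancreas summed to 7.54 to 22.8 CPM. Nearly all of that sum was Cela1, at 7.08 to 22.8 CPM, and no other pancreas marker exceeded 0.286 CPM in any library. No listed marker of any of these types was at 0 in all libraries, and edgeR called 0 of them over all genes. At an unadjusted p under 0.05 in edgeR, 5 erythroid, 2 Kupffer, 3 endothelial and 2 stellate markers were lower and 0 higher. By the same measure 1 hepatocyte and 1 cholangiocyte marker were higher. Over all genes tested, 7.26% were lower and 7.21% higher at that p. Cholangiocyte markers summed to 40.4 to 49.4 CPM in control and 45.2 to 70.0 CPM in inosine, with overlap. In bulk tissue, fewer cells of a type and less RNA per cell cannot be told apart, and the part of cell makeup in the members' values was not tested. The libraries held 16383896 to 17505035 counts each, with 14703 to 14977 genes detected.

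Precision followed abundance. The 8 members under 5 CPM had a median SE of 0.27 and 1 of them had separate groups. The 48 members from 5 to 50 CPM had a median SE of 0.10 with 16 separate, and the 52 members at 50 CPM or more had a median SE of 0.09 with 17 separate. For the weakest members, such as Uggt2 at 0.31 (SE 0.26) or Bcl2 at -0.28 (SE 0.33), the SE was close to the fold change or above it. How much of that error came from depth and how much from scatter among libraries was not tested.

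The 49 pathway genes set aside had a higher median, 0.24, with 18 entirely higher and 2 entirely lower in inosine. They were set aside with these values known, so the contrast with the members cannot be told apart from the choice and was not tested. By class the median was 0.48 for 14 heat shock and lumenal chaperones, with Hspa5 at 1.01 and Hyou1 at 1.25, and 0.27 for 10 Dnaj co-chaperones, with Dnajc5 at 0.36 and Dnajc3 at 0.45. It was 0.24 for 9 Eif and Atf4 pathway genes, with Ddit3 at 0.80 and Eif2ak3 at 0.59, and 0.15 for 6 disulfide isomerases, with Pdia4 at 0.49 and Txndc5 at 0.38. For 10 sensors and core degradation genes it was 0.15, with Syvn1 at 0.97 and Herpud1 at 0.91. None of these 49 passed edgeR over all genes, and DESeq2 called 8 of them higher. Syvn1, the ligase of the main disposal complex at the ER membrane, measured 53.4, 55.8 and 47.0 CPM in control and 82.6, 89.3 and 135 CPM in inosine.

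The members also belong to other pathways of the deposited annotation. Among those that describe processes, 15 are listed under ubiquitin mediated proteolysis, 13 under N-glycan biosynthesis, 10 under apoptosis and 6 under protein export.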

How the data were processed

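Per the submitters' processing notes, Bowtie2, RSEM and the build GRCm39 were used, without versions. The authors deposited estimated counts per gene, which need not be whole, with FPKM and TPM values. Per the file headers, the authors also deposited each gene's log2 fold change, with a p-value and q-value from DESeq2. The sources used here do not say whether strand was kept. The strand in the deposited table differed from RefSeq for 14 of 95 members compared, so it is not printed. By the spans in that table, some of which may be too long, 24 members overlap another gene, and how reads were divided between overlapping genes is not known. All 18 per-sample columns matched a library, and 0 were left unmapped.

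Counts (16383896 to 17505035 per library) were rounded and fitted by the quasi-likelihood test of edgeR 4.0.16 (R 4.3.3) on the 6 libraries with TMM scaling, the default low-count filter and group as the only term. Tests were two-sided with Benjamini-Hochberg adjustment over 12326 genes at 0.05. The SE is the log2 fold change divided by the square root of F. DESeq2 1.42.0 and limma 3.58.1 were alternatives. The steps were tested on simulated data. The deposited TPM served to compare levels between genes. FPKM was not used for any result. No 2 libraries of the same group agreed within sampling noise. Floors (3 counts) cover counting error only, while the SE also takes in the scatter among libraries.

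The members and the role and marker lists were chosen with earlier results of these data known. From each role, the 4 members of smallest p and the most abundant one are named, then the 5 largest fold changes with separate groups and at least 1 CPM. For the genes set aside, the 2 of smallest p per class are named. Any other gene was chosen after its values were seen. A member that the rule takes is counted in the totals and otherwise not reported here.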

Additional observations from a re-analysis of the deposited data

How the results depend on the processing

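The count of members past edgeR was 0 in each of the 13 alternatives except DESeq2, with 2. Over all genes it was 1 and became 212 with DESeq2, 6 with limma-voom, 9 without the low-count filter, 6 with a mean of at least 1 CPM, 0 with limma on log2(TPM + 1), and 0 to 56 when 1 library was left out (56 without control replicate 1). Members entirely higher numbered 29 and ranged from 31 to 47 without 1 library, and those entirely lower numbered 5 and ranged from 5 to 10. With fewer libraries such separation is easier to reach. The median log2 fold change of members was 0.08, ranged from 0.05 to 0.11 without 1 library and was 0.14 on log2(TPM + 1), where that of all genes was 0.05. Among the 34 members that the naming rule takes, the sign turned in 6 of 442 alternative values, all with a library left out, for Sar1b (-0.053 to 0.17), Bax (-0.0079 to 0.11), Sec61b (-0.18 to 0.00037) and Skp1 (-0.016 to 0.15). The labels do not say whether same-numbered libraries were paired. Deviations of same-numbered libraries correlated at -0.04, -0.05 and -0.05, and those of different numbers at -0.08 to 0.14. With 3 libraries per group these values cannot decide whether the numbers pair them. With the replicate block edgeR called 0 genes and 0 members, and the member median was 0.08. The cause of these differences was not tested. The 8 members under 5 CPM had a median SE of 0.27, and the part of depth in it was not tested.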
